A study of Homo sapiens with 6 samples.

Results

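The translation initiation factors are the proteins that place the ribosome on the start codon of a messenger RNA. They were taken from the deposited count table as every symbol that starts with EIF and a digit, without the eIF2alpha kinases (EIF2AK), antisense symbols, symbols ending in P and a digit, and EIF1AY. This gave 46 of the 19009 genes of the table. The table has 55 symbols of that form, and the other 9 left out were EIF1B-AS1, the kinases EIF2AK1 to EIF2AK4, the pseudogene EIF3IP1 and the 4E-binding proteins EIF4EBP1 to EIF4EBP3, whose symbols end in P and a digit although they are not pseudogenes. The kinases and the 4E-binding proteins are described below as regulators. All 46 initiation factors had at least 1 count in every library and a mean level of at least 1 CPM, where CPM is the number of reads per 1000000 reads of a library after TMM scaling.

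Poly(A) RNA was sequenced from RCC10, a permanent human cell line from clear cell renal carcinoma, a tumour type in which loss of VHL leaves the HIF transcription factors active. The 6 libraries form 3 groups of 2. HIF double-knockout cells (DKO in the labels, lacking HIF-1alpha and HIF-2alpha per the design text) had received guide RNAs by lentivirus, with puromycin selection. VHL-restored cells had received a VHL lentivirus, and parental cells are labelled WT and control. All were grown in DMEM with 10% FBS, no empty-vector or non-targeting control is named, and no source used here says whether an engineered line was a clone or a pool or whether a replicate had its own culture. P-values therefore measure library-to-library spread, part or all of which may be technical. The knockout, the guide RNA virus and puromycin cannot be told apart in the double-knockout comparisons. Likewise VHL and its lentivirus cannot be told apart in the comparisons of VHL-restored cells. Both limits hold where the engineered lines are compared with each other.

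In cap-dependent initiation the eIF4 factors bind the capped end of the messenger RNA and unwind its leader, while eIF1, eIF1A, eIF3 and eIF2 with the initiator tRNA load the small ribosomal subunit. The start codon triggers GTP hydrolysis on eIF2 with the help of eIF5, eIF5B joins the large subunit, and eIF2B recharges eIF2 with GTP. Stress kinases that phosphorylate eIF2alpha block that recharging, and hypoxia and mTORC1 inhibition act on the cap-binding step through the 4E-binding proteins.

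Total counts were 29929116 and 26085121 in double-knockout cells, 27890958 and 27776717 in VHL-restored cells, and 29454611 and 22248126 in parental cells. The targeted genes were measured first. HIF1A had 29.6 and 31.6 CPM in double-knockout cells, 304 and 286 CPM in VHL-restored cells, and 69.5 and 72.9 CPM in parental cells. EPAS1, the gene of HIF-2alpha, had 44.4 and 48.0 CPM in double-knockout cells, 363 and 369 CPM in VHL-restored cells, and 352 and 349 CPM in parental cells. VHL had 43.3 and 47.3 CPM in double-knockout cells, 652 and 723 CPM in VHL-restored cells, and 38.8 and 39.5 CPM in parental cells. HIF1A and EPAS1 were lowest in double-knockout cells and VHL highest in VHL-restored cells, while transcripts of both HIF genes remained in the knockout and no protein was measured. The renal carcinoma markers PAX8, KRT8, KRT18 and VIM were present in every library. PAX2 had 15.9 and 14.8 CPM in double-knockout cells, 0.858 and 1.36 CPM in VHL-restored cells, and 1.48 and 1.85 CPM in parental cells. CA9 was at 0 in 5 libraries and 0.0441 CPM in parental replicate 2. These 6 markers summed to 6771 to 6781 CPM in double-knockout cells, 5756 to 6105 CPM in VHL-restored cells and 8391 to 8421 CPM in parental cells. Most of each sum was VIM, which was highest in parental cells at 7022 and 7020 CPM. PAX8, KRT8 and KRT18 were instead lowest in parental cells. KRT18 had 869 and 814 CPM in double-knockout cells, 922 and 988 CPM in VHL-restored cells, and 352 and 345 CPM in parental cells. Leukocyte markers summed to at most 0.393 CPM and endothelial markers to at most 0.176 CPM, with PTPRC, CD3E, PECAM1 and KDR at 0 throughout. The fibroblast markers, almost all COL1A1, summed to 1.37 and 1.44 CPM in double-knockout cells, 10.1 and 8.50 CPM in VHL-restored cells, and 8.56 and 8.69 CPM in parental cells, with DCN and PDGFRA at most 0.214 CPM. The part of these marker differences in the results was not tested.

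Most initiation factor transcripts were higher in double-knockout than in parental cells. Of the 46, 35 were higher, 5 were lower and 6 did not pass an adjusted p of 0.05 in edgeR's quasi-likelihood test, which was fitted on all 18273 genes with at least 1 count. Across all genes tested 26.6% were called higher and 27.5% lower, so the background of calls was large, and the initiation factors had 76.1% higher and 10.9% lower. Among the 12687 genes with a mean of at least 1 CPM, the shares were 36.1% higher and 35.6% lower. The median log2 fold change of the initiation factors was 0.37, against 0.00 over all genes tested and 0.01 over genes of at least 1 CPM. Most changes were modest, and 3 of the 46 passed 2-fold, EIF5A2 and EIF2B3 upward and EIF4E3 downward. Without parental replicate 1, 3 rather than 5 were lower. EIF3C and EIF3CL hold the same count in every library, and with this pair counted once 35 of 45 were higher and 5 lower, with a median of 0.38. With each library centred on its median count instead of TMM, an alternative added after the data were seen, 39 of 46 were higher and 3 lower, while 6010 of all genes were higher and 4131 lower in place of 4858 and 5030. Under that centring EIF1, EIF3A, EIF4H and EIF5AL1 were also called higher, and EIF2B1 and EIF4A3 lost their calls (adjusted p = 0.0808 and 0.35). The log2 fold change of EIF4B was then -0.15, that of EIF3E 0.31 and that of EIF3H 0.35.

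In VHL-restored cells initiation factors moved in both directions relative to parental cells. Of the 46 initiation factors 20 were higher, 10 were lower and 16 did not pass, which is 43.5% higher and 21.7% lower, beside 26.5% higher and 27.7% lower over all genes tested and 35.1% and 36.7% over genes of at least 1 CPM. The median log2 fold change was 0.10, against 0.00 over all genes, and 1 member, EIF5A2, passed 2-fold, downward. With centring on the median of all genes 26 were higher and 8 lower: EIF2A and EIF2D lost their calls (adjusted p = 0.0681 and 0.063), and EIF2B3, EIF2S1, EIF3D, EIF3H, EIF4A3 and EIF4G1 were called higher. Of these EIF2B3, EIF2S1, EIF3H and EIF4G1 were also called higher with centring on the median of genes of at least 1 CPM, and EIF2B3 with a filter on low counts (adjusted p = 0.0494). Set directly against VHL-restored cells, double-knockout cells had 25 initiation factors higher, 10 lower and 11 that did not pass. These are 54.3% higher and 21.7% lower, beside 28.0% higher and 28.0% lower over all genes and 37.8% and 36.2% over genes of at least 1 CPM. The median was 0.21, against 0.00, and 2 members, EIF5A2 and EIF2B3, passed 2-fold, both upward. The first and second of these comparisons share the parental libraries, and each library enters a pair of comparisons, so the 3 sets of calls are not independent. In bulk RNA, fewer cells that express a gene and less of its RNA per cell cannot be told apart.

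**Figure D1:**
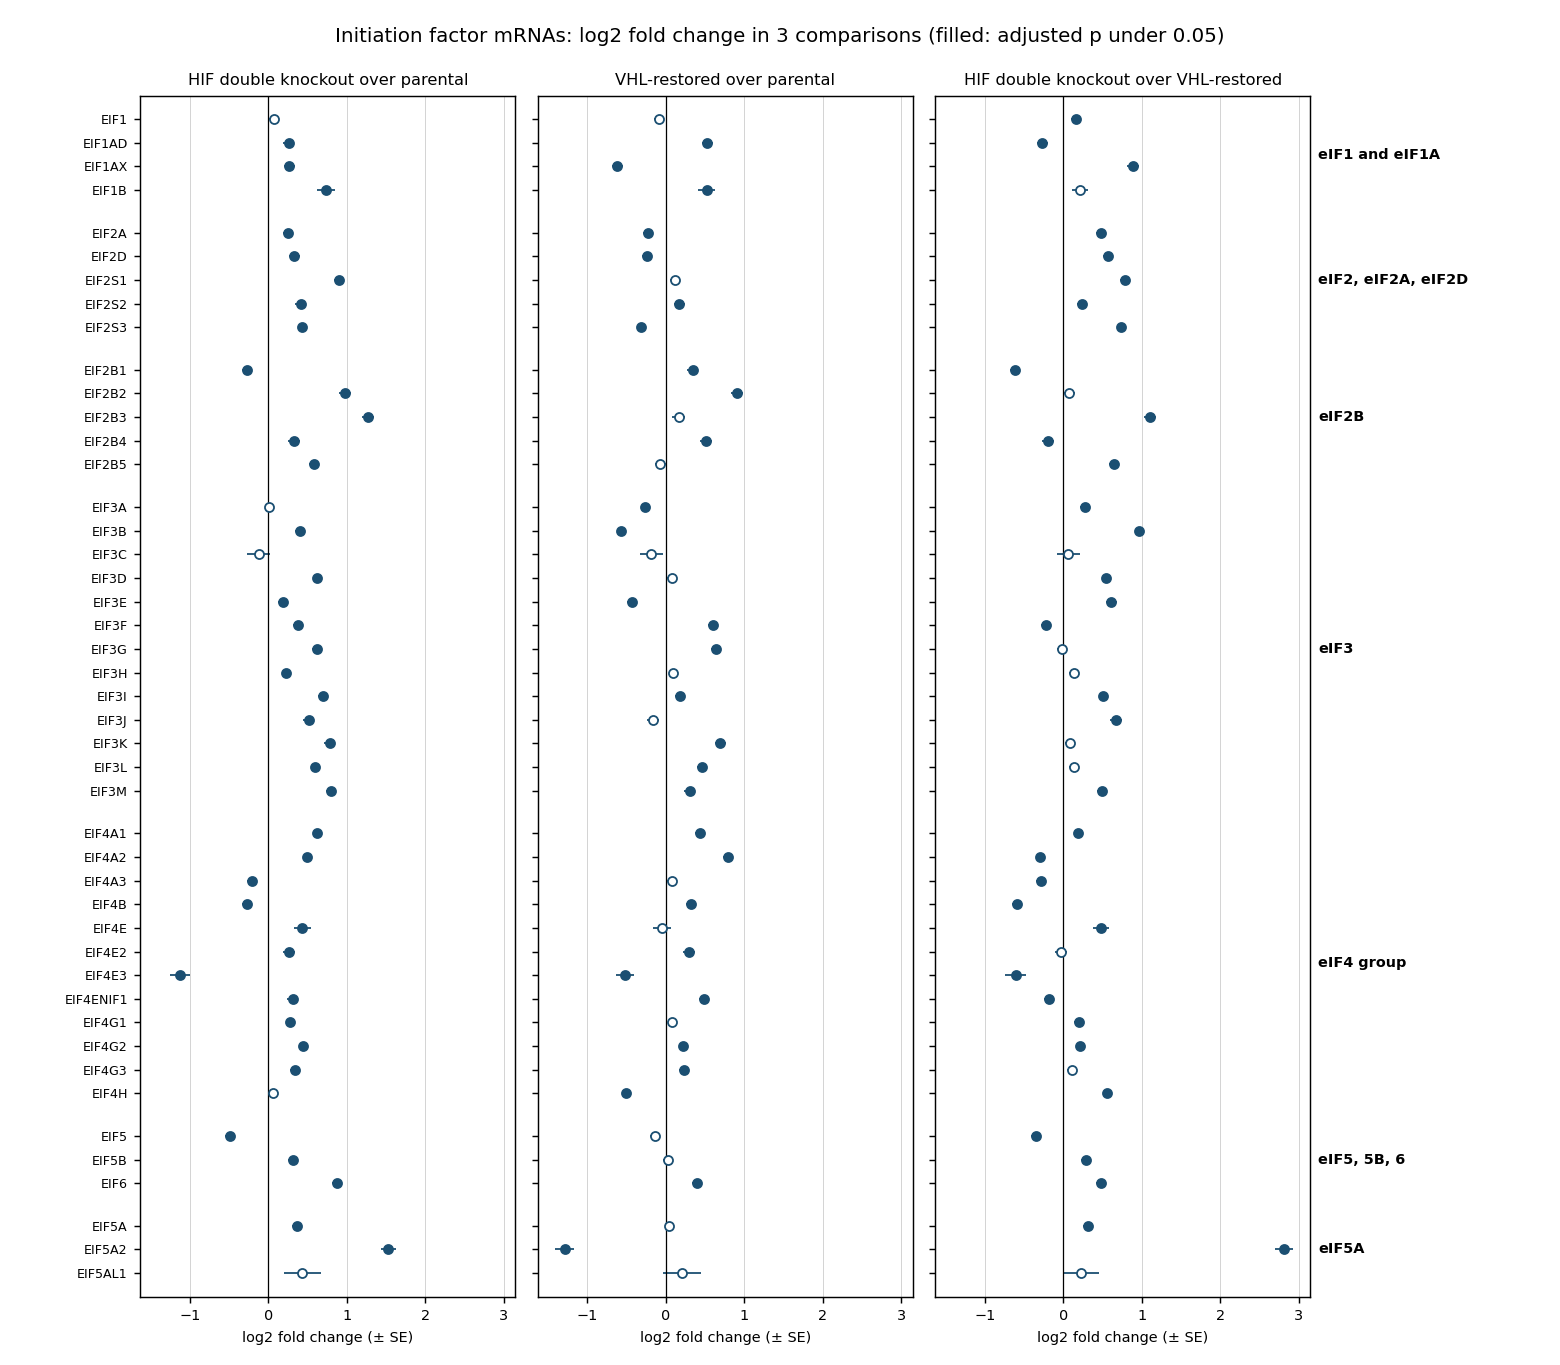
Log2 fold change (x axis, bars ± SE) of each initiation factor (y axis, grouped by role; EIF3C stands also for EIF3CL) in HIF double-knockout over parental, VHL-restored over parental and HIF double-knockout over VHL-restored cells, on the same scale. Filled points passed an adjusted p of 0.05; EIF5A2 lies farthest from 0 in each panel, at 1.53, -1.29 and 2.82 from left to right.

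With EIF3C and EIF3CL counted once, initiation factor transcripts summed to 11904 and 11764 CPM in double-knockout cells, 9722 and 10110.0 CPM in VHL-restored cells, and 9239 and 9071 CPM in parental cells. The 46 genes took 1.16% and 1.16% of all counts in double-knockout cells, 0.975% and 1.02% in VHL-restored cells, and 0.931% and 0.925% in parental cells. Neither the sums nor the shares overlap between the groups, with double-knockout cells highest and parental cells lowest. This order did not hold in every role group. The sum of eIF2 and the other initiator tRNA carriers was 641 and 680 CPM in VHL-restored cells, under 731 and 735 CPM in parental cells. The eIF1, eIF3 and eIF5A sums overlapped between these groups. Those of eIF2B, of eIF4 and of EIF5, EIF5B and EIF6 were higher in VHL-restored cells. The eIF4 sum was 4725 and 4785 CPM there, against 4095 and 3976 CPM in parental cells. Levels of different genes can be compared per kilobase of the principal transcript, where EIF4A1, EIF4G2 and EIF5A led in every group. In double-knockout cells EIF4A1 was at 679 ± 23.2, EIF4G2 at 647 ± 1.90 and EIF5A at 611 ± 4.13 CPM per kb (mean ± SD, n = 2). In VHL-restored cells EIF4A1 was at 593 ± 38.4, EIF4G2 at 558 ± 11.9 and EIF5A at 492 ± 30.0 CPM per kb. In parental cells EIF4G2 was at 477 ± 3.39, EIF5A at 476 ± 32.9 and EIF4A1 at 439.6 ± 13.7 CPM per kb. The order of EIF4G2 and EIF5A in parental cells lies within the replicate spread. EIF5AL1, EIF4E, EIF4E3 and EIF3C were lowest in parental cells. The lengths used were those of an 11523-base transcript for EIF4E and a 1969-base transcript for EIF4G2. Their values per kb, and the place of EIF4G2 among the leading genes, depend on that choice. A longer EIF4G2 transcript would lower its value.

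**Figure D2:**
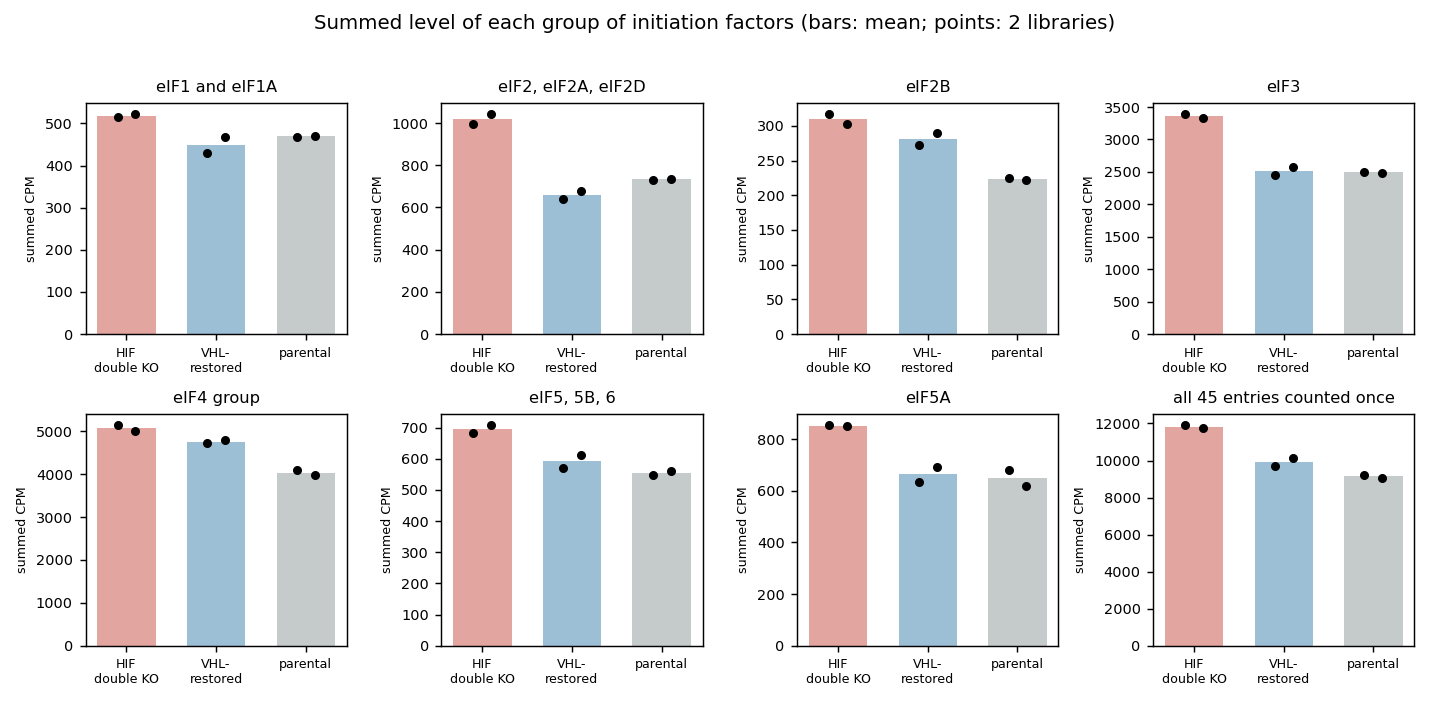
Summed CPM (y axis, from 0) of the initiation factors of each role group in every library, with points for libraries and bars for group means, in HIF double-knockout, VHL-restored and parental cells. The eIF3 sum was 3398 and 3331 CPM in double-knockout cells, above every VHL-restored and parental library, while the eIF2B sum was lowest in parental cells at 224 and 222 CPM.

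The eIF5A family held the most changed member. eIF5A carries hypusine, a modified lysine, and helps the ribosome form peptide bonds at difficult sequences during elongation. EIF5A2 encodes a second isoform that is usually scarce. EIF5A2 had 31.5 and 35.7 CPM in double-knockout cells, 4.72 and 4.79 CPM in VHL-restored cells, and 11.3 and 12.0 CPM in parental cells. The 3 groups were fully separate, highest in double-knockout cells and lowest in VHL-restored cells. Relative to parental cells EIF5A2 was 2.89-fold higher (log2 fold change 1.53 ± 0.09, adjusted p = 3.68e-15) in double-knockout cells. In VHL-restored cells EIF5A2 was 2.44-fold lower (log2 fold change -1.29 ± 0.12, adjusted p = 1.02e-10). Between the engineered lines it was 7.05-fold higher (log2 fold change 2.82 ± 0.11, adjusted p = 2.3e-20) in double-knockout cells. EIF5A2 passed in all 3 comparisons under each of the 14 alternative settings, including with any 1 library left out.

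EIF5A, the main isoform, had 820.1 and 812 CPM in double-knockout cells, 629 and 686 CPM in VHL-restored cells, and 667 and 604 CPM in parental cells. It was 1.28-fold higher (log2 fold change 0.36 ± 0.06, adjusted p = 2.47e-06) in double-knockout than in parental cells, with no overlap, whereas the VHL-restored libraries overlapped the parental ones (log2 fold change 0.05 ± 0.06, adjusted p = 0.517). EIF5A2 made up 3.69% and 4.21% in double-knockout cells, 0.745% and 0.694% in VHL-restored cells, and 1.67% and 1.94% in parental cells of the reads of EIF5A and EIF5A2 together, not corrected for length. Exact 95% binomial (Clopper-Pearson) bounds, which cover counting error only, lay within 0.275 percentage points of each share. These shares show that EIF5A remained the dominant transcript in every library, while the EIF5A2 shares of the 3 groups did not overlap. Per kilobase of transcript the mean levels in double-knockout cells were 6.01 CPM per kb for EIF5A2 and 611 CPM per kb for EIF5A. EIF5AL1, an EIF5A-like gene listed at 1.06 to 2.02 CPM whose reads may in part be those of EIF5A, did not pass in any comparison. Its log2 fold change of 0.43 ± 0.24 (adjusted p = 0.127) in double-knockout cells passed with parental replicate 1 left out (adjusted p = 0.0396) and with centring on all genes (0.0435). The hypusine enzymes deoxyhypusine synthase (DHPS, log2 0.46, adjusted p = 1.17e-05) and deoxyhypusine hydroxylase (DOHH, log2 0.98, adjusted p = 8.38e-11) were also higher in double-knockout than in parental cells. DOHH had 35.2 and 29.2 CPM in double-knockout cells, 21.5 and 20.9 CPM in VHL-restored cells, and 16.4 and 16.3 CPM in parental cells, with the 3 groups separate.

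The promoters of EIF5A2, of EIF2B3 and of EIF4E3 are shown because these are the 3 initiation factors that passed 2-fold between double-knockout and parental cells. HIF binds RCGTG, so ACGTG and GCGTG were searched on both strands of the 250 bases before the RefSeq start (GRCh38.p14). CACGTG, the palindromic E-box that contains ACGTG on both strands and is bound by MYC, USF and related factors, was counted as well. Each sequence reads toward the gene, and capitals mark every match to ACGTG or GCGTG on either strand. The windows lie at chr3:170908638-170908887, chr1:44986596-44986845 and chr3:71754774-71755023, all on the minus strand.
EIF5A2: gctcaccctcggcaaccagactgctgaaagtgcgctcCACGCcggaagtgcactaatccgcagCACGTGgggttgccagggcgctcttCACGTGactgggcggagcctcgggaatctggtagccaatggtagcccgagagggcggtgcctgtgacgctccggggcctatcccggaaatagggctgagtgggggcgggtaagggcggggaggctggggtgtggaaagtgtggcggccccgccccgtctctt
EIF2B3: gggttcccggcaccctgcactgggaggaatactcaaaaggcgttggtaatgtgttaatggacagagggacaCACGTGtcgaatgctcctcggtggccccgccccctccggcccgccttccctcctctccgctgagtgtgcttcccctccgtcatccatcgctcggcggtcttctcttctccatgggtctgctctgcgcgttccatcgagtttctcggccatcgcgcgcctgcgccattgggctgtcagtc
EIF4E3: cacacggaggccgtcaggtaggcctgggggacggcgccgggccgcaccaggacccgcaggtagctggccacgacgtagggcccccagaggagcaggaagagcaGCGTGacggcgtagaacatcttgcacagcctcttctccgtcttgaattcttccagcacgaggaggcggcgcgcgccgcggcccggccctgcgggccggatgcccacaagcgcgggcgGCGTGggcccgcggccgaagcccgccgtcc
The EIF5A2 window holds CACGTG at 182 to 187 and at 157 to 162 bases before the start, and the EIF2B3 window holds it at 174 to 179. The EIF4E3 window holds no CACGTG and 2 copies of GCGTG.

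Of the 39 initiation factors with a RefSeq promoter, 10 held CACGTG in this window (25.6%), beside 8.33% of the 12470 promoters of genes in the table. Those 12470 include genes of any level, whereas every initiation factor had a mean of at least 1 CPM, and promoters of like level were not compared. The 10 were EIF1B, EIF2B3, EIF3F, EIF3K, EIF4A3, EIF4B, EIF4E, EIF4G1, EIF4H and EIF5A2, and EIF5A2, EIF4E and EIF4G1 held it more than once. ACGTG, which includes the CACGTG matches, was in 15 of 39 (38.5%, beside 21.8%), and GCGTG in 19 of 39 (48.7%, beside 41.8%). Against parental cells 7 of the 10 with CACGTG were higher and 2 lower in double-knockout cells, and 23 of the 29 without CACGTG were higher and 3 lower. In VHL-restored cells 4 of the 10 with CACGTG were higher and 2 lower, and 13 of the 29 without it were higher and 6 lower. A match is only a description of letters, and binding was not measured.

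All 5 carriers of the initiator tRNA were higher in double-knockout than in parental cells. In VHL-restored cells 1 was higher, 3 were lower (1 with centring on all genes) and 1 did not pass. The shares are 100% higher and 0% lower in double-knockout cells, beside 36.1% and 35.6% of all genes of at least 1 CPM. For VHL-restored cells they are 20% and 60%, beside 35.1% and 36.7%. EIF2S1 encodes eIF2alpha, the subunit that the stress kinases phosphorylate. EIF2S1 had 190.5 and 199 CPM in double-knockout cells, 114 and 112 CPM in VHL-restored cells, and 102 and 107 CPM in parental cells. Its double-knockout libraries stood far above all others; it was 1.86-fold higher (log2 fold change 0.90 ± 0.06, adjusted p = 5.47e-14) in double-knockout than in parental cells, and its log2 fold change of 0.11 ± 0.06 (adjusted p = 0.132) in VHL-restored cells did not pass. EIF2S3 encodes the GTP-binding gamma subunit and had 469.9 and 504 CPM in double-knockout cells, 281 and 301 CPM in VHL-restored cells, and 366 and 355 CPM in parental cells. The groups did not overlap, with EIF2S3 1.35-fold higher (log2 fold change 0.43 ± 0.06, adjusted p = 9.75e-08) in double-knockout cells against parental cells. In VHL-restored cells EIF2S3 was 1.24-fold lower (log2 fold change -0.31 ± 0.06, adjusted p = 2.93e-05). EIF2S2, the beta subunit, was 1.33-fold higher (log2 fold change 0.41 ± 0.07, adjusted p = 5.71e-06) in double-knockout cells. Its call in VHL-restored cells (log2 0.17, adjusted p = 0.0371) rested on libraries that overlap the parental ones and was lost without either parental replicate (adjusted p = 0.42 and 0.0739), without either double-knockout replicate (0.089 and 0.0891) and without VHL-restored replicate 2 (0.492). It was also lost in DESeq2 (adjusted p = 0.0506) and with the 4 compared libraries alone (0.0876), and its log2 fold change was 0.27 without VHL-restored replicate 1.

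EIF2A and EIF2D encode factors that can deliver initiator tRNA outside the usual route. EIF2A had 107 and 115 CPM in double-knockout cells, 77.8 and 80.7 CPM in VHL-restored cells, and 91.1 and 94.6 CPM in parental cells. EIF2D had 95.2 and 88.3 CPM in double-knockout cells, 60.5 and 63.2 CPM in VHL-restored cells, and 74.6 and 71.1 CPM in parental cells. Both were highest in double-knockout cells and lowest in VHL-restored cells, without overlap. EIF2A was 1.19-fold higher (log2 fold change 0.26 ± 0.06, adjusted p = 0.00108) in double-knockout cells relative to parental cells. In VHL-restored cells EIF2A was 1.17-fold lower (log2 fold change -0.23 ± 0.07, adjusted p = 0.0036). The EIF2A call was lost without parental replicate 1 in double-knockout cells (adjusted p = 0.0531) and without parental replicate 2 in VHL-restored cells (0.0873). EIF2D was 1.26-fold higher (log2 fold change 0.33 ± 0.07, adjusted p = 9.14e-05) in double-knockout cells, and in VHL-restored cells 1.18-fold lower (log2 fold change -0.24 ± 0.07, adjusted p = 0.00379), a call lost without parental replicate 1 (adjusted p = 0.11). Double-knockout cells exceeded VHL-restored cells for all 5 carriers, by log2 fold changes of 0.24 for EIF2S2 to 0.78 for EIF2S1; the EIF2S2 difference was lost without double-knockout replicate 2 (adjusted p = 0.0872) or VHL-restored replicate 1 (0.0866).

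The subunits of eIF2B, the exchange factor that recharges eIF2, did not move as a block. In double-knockout cells 4 of 5 were higher than in parental cells and EIF2B1 was lower. In VHL-restored cells 3 were higher and the other 2 did not pass. The shares are 80% higher and 20% lower in double-knockout cells, beside 36.1% and 35.6% of all genes of at least 1 CPM. For VHL-restored cells they are 60% and 0%, beside 35.1% and 36.7%. EIF2B3 encodes gamma, the partner of the catalytic subunit, and had 55.3 and 52.9 CPM in double-knockout cells, 24.5 and 25.9 CPM in VHL-restored cells, and 22.3 and 22.5 CPM in parental cells. EIF2B5 encodes the catalytic epsilon subunit and had 103 and 94.4 CPM in double-knockout cells, 63.1 and 62.5 CPM in VHL-restored cells, and 65.7 and 66.0 CPM in parental cells. For both genes the double-knockout libraries lay above all others, and EIF2B3 was 2.41-fold higher (log2 fold change 1.27 ± 0.08, adjusted p = 3.68e-15) and EIF2B5 1.50-fold higher (log2 fold change 0.58 ± 0.07, adjusted p = 7.22e-09) in double-knockout than in parental cells. Neither passed in VHL-restored cells, with log2 fold changes of 0.17 ± 0.08 (adjusted p = 0.0868) for EIF2B3 and -0.07 ± 0.07 (adjusted p = 0.441) for EIF2B5. Directly compared, double-knockout cells exceeded VHL-restored cells by 2.15-fold for EIF2B3 (adjusted p = 7.77e-14) and by 1.57-fold for EIF2B5 (adjusted p = 7.08e-10).

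EIF2B2, the beta subunit of the regulatory core, had 50.3 and 51.5 CPM in double-knockout cells, 46.0 and 50.9 CPM in VHL-restored cells, and 26.6 and 25.0 CPM in parental cells. Here both engineered lines lay above the parental cells and overlapped each other: EIF2B2 was 1.97-fold higher (log2 fold change 0.98 ± 0.08, adjusted p = 2.75e-12) in double-knockout cells and 1.88-fold higher (log2 fold change 0.91 ± 0.08, adjusted p = 1.92e-11) in VHL-restored cells, with a log2 fold change of 0.07 ± 0.07 (adjusted p = 0.452) between the engineered lines. EIF2B4, the delta subunit, had 48.3 and 47.8 CPM in double-knockout cells, 51.1 and 58.6 CPM in VHL-restored cells, and 38.0 and 38.6 CPM in parental cells. EIF2B4 was 1.25-fold higher (log2 fold change 0.33 ± 0.08, adjusted p = 0.000573) in double-knockout cells against parental cells. In VHL-restored cells EIF2B4 was 1.43-fold higher (log2 fold change 0.52 ± 0.08, adjusted p = 7.91e-07). EIF2B1, the alpha subunit, had 61.1 and 56.1 CPM in double-knockout cells, 87.4 and 91.9 CPM in VHL-restored cells, and 71.6 and 69.7 CPM in parental cells. Here double-knockout cells were lowest and VHL-restored cells highest, without overlap. EIF2B1 was 1.21-fold lower (log2 fold change -0.27 ± 0.07, adjusted p = 0.00131) in double-knockout cells and 1.27-fold higher (log2 fold change 0.34 ± 0.07, adjusted p = 6.66e-05) in VHL-restored cells relative to parental cells, and 1.53-fold lower (log2 fold change -0.61 ± 0.07, adjusted p = 3.71e-09) in double-knockout than in VHL-restored cells. Its call in double-knockout against parental cells was lost without parental replicate 1 (adjusted p = 0.0554).

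Among the factors of scanning and start codon choice, EIF1, the gatekeeper of start codon fidelity, did not pass against parental cells, with log2 fold changes of 0.07 ± 0.06 (adjusted p = 0.314) in double-knockout cells and -0.09 ± 0.06 (adjusted p = 0.232) in VHL-restored cells; without VHL-restored replicate 2 the value in VHL-restored cells was called lower (adjusted p = 0.016). Its close paralog EIF1B had 18.1 and 22.6 CPM in double-knockout cells, 15.9 and 19.0 CPM in VHL-restored cells, and 12.1 and 12.2 CPM in parental cells. EIF1B was above the parental level in both engineered lines, 1.67-fold higher (log2 fold change 0.74 ± 0.11, adjusted p = 6.6e-07) in double-knockout cells. In VHL-restored cells EIF1B was 1.44-fold higher (log2 fold change 0.52 ± 0.11, adjusted p = 0.000142). EIF1B made up 4.76% and 5.95% in double-knockout cells, 4.97% and 5.31% in VHL-restored cells, and 3.41% and 3.47% in parental cells of the reads of EIF1 and EIF1B, with exact 95% bounds within 0.487 points, so EIF1 supplied most reads in every library. EIF1AX encodes eIF1A, which keeps the scanning ribosome open, and had 81.6 and 92.4 CPM in double-knockout cells, 46.8 and 47.3 CPM in VHL-restored cells, and 68.7 and 75.6 CPM in parental cells. VHL-restored cells were clearly lowest, 1.53-fold lower (log2 fold change -0.61 ± 0.07, adjusted p = 2.09e-08) than parental cells, and double-knockout cells were 1.85-fold higher (log2 fold change 0.89 ± 0.07, adjusted p = 6.43e-12) than VHL-restored cells. Against parental cells EIF1AX was 1.21-fold higher (log2 fold change 0.27 ± 0.07, adjusted p = 0.00176) in double-knockout cells, a call lost without parental replicate 1 (adjusted p = 0.129) or double-knockout replicate 2 (0.0814). EIF1AD, which has an eIF1A-like domain, had 53.3 and 51.2 CPM in double-knockout cells, 63.4 and 62.3 CPM in VHL-restored cells, and 43.7 and 43.5 CPM in parental cells. It was highest in VHL-restored cells, 1.44-fold higher (log2 fold change 0.53 ± 0.07, adjusted p = 1.33e-07) than in parental cells, and was 1.20-fold higher (log2 fold change 0.26 ± 0.07, adjusted p = 0.00221) in double-knockout cells.

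eIF3, the large scaffold that binds the small ribosomal subunit, had 11 of 13 subunit genes higher and 0 lower in double-knockout than in parental cells (EIF3C and EIF3CL counted once), with a median log2 fold change of 0.51. At an unadjusted edgeR p under 0.05, 0 subunits were lower, and DESeq2 and limma-voom also called 0 lower. In VHL-restored cells 6 were higher, 3 lower and 4 did not pass, with a median of 0.10. The shares are 84.6% higher and 0% lower in double-knockout cells, beside 36.1% and 35.6% of all genes of at least 1 CPM. For VHL-restored cells they are 46.2% and 23.1%, beside 35.1% and 36.7%. The subunits are grouped below mainly by their values in VHL-restored cells, and some share the trait of another group. EIF3B, a core subunit and RNA-binding scaffold, had 664 and 609 CPM in double-knockout cells, 324 and 327 CPM in VHL-restored cells, and 485 and 477 CPM in parental cells. EIF3E, a subunit of the octamer core, had 257 and 287 CPM in double-knockout cells, 172 and 183 CPM in VHL-restored cells, and 225 and 252 CPM in parental cells. EIF3A, the largest subunit, had 410.0 and 402 CPM in double-knockout cells, 343 and 329 CPM in VHL-restored cells, and 407 and 398 CPM in parental cells. All 3 were lowest in VHL-restored cells without overlap: EIF3B was 1.48-fold lower (log2 fold change -0.56 ± 0.06, adjusted p = 3.76e-10), EIF3E 1.35-fold lower (log2 fold change -0.43 ± 0.07, adjusted p = 1.33e-06) and EIF3A 1.20-fold lower (log2 fold change -0.26 ± 0.06, adjusted p = 0.000154) than in parental cells. In double-knockout cells EIF3B was 1.32-fold higher (log2 fold change 0.40 ± 0.06, adjusted p = 2.2e-07) than in parental cells, while EIF3A had a log2 fold change of 0.01 ± 0.05 (adjusted p = 0.878) and overlapped. EIF3E was 1.14-fold higher (log2 fold change 0.19 ± 0.06, adjusted p = 0.0146), a call lost without parental replicate 1 (adjusted p = 0.38) or double-knockout replicate 2 (0.324). EIF3B was 1.96-fold higher (log2 fold change 0.97 ± 0.06, adjusted p = 1.31e-15) in double-knockout than in VHL-restored cells.

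EIF3F, EIF3G, EIF3K and EIF3L were higher than parental in both engineered lines, as were EIF3I and EIF3M, described below. EIF3F had 106 and 105 CPM in double-knockout cells, 117 and 128 CPM in VHL-restored cells, and 81.0 and 80.6 CPM in parental cells, with VHL-restored cells highest. EIF3G, an RNA-binding subunit active in scanning, had 177 and 160.5 CPM in double-knockout cells, 162 and 179 CPM in VHL-restored cells, and 110.4 and 109 CPM in parental cells. EIF3K had 197 and 194 CPM in double-knockout cells, 169 and 199 CPM in VHL-restored cells, and 112 and 116 CPM in parental cells. For EIF3G and EIF3K the engineered lines overlapped each other and lay above both parental libraries. EIF3G was 1.54-fold higher (log2 fold change 0.62 ± 0.06, adjusted p = 9.25e-10) and EIF3K 1.72-fold higher (log2 fold change 0.78 ± 0.07, adjusted p = 1.15e-11) in double-knockout cells, against 1.55-fold higher (log2 fold change 0.64 ± 0.06, adjusted p = 5.96e-10) and 1.62-fold higher (log2 fold change 0.70 ± 0.07, adjusted p = 1.77e-10) in VHL-restored cells, all relative to parental cells. EIF3F was 1.30-fold higher (log2 fold change 0.38 ± 0.06, adjusted p = 7.77e-06) in double-knockout cells. In VHL-restored cells EIF3F was 1.51-fold higher (log2 fold change 0.60 ± 0.06, adjusted p = 2e-09). EIF3L, which pairs with EIF3K at the edge of the complex, had 171 and 166 CPM in double-knockout cells, 153 and 153 CPM in VHL-restored cells, and 115 and 107 CPM in parental cells, and was 1.52-fold higher (log2 fold change 0.60 ± 0.06, adjusted p = 5.16e-10) in double-knockout cells. In VHL-restored cells EIF3L was 1.38-fold higher (log2 fold change 0.46 ± 0.06, adjusted p = 1.03e-07). Its log2 fold change of 0.14 ± 0.06 (adjusted p = 0.052) between double-knockout and VHL-restored cells did not pass, and passed in edgeR with centring on all genes (adjusted p = 0.0141), with the replicate block (0.0331) and in limma-voom (0.0468).

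EIF3D, EIF3I, EIF3J and EIF3M had their highest values in double-knockout cells without overlap with either other group. EIF3B, EIF3E, EIF3H and EIF3L shared this trait, though EIF3H and EIF3L did not pass between double-knockout and VHL-restored cells. EIF3D, a subunit that can itself bind the cap of selected messenger RNAs, had 362 and 342 CPM in double-knockout cells, 239 and 242 CPM in VHL-restored cells, and 234 and 222 CPM in parental cells. EIF3I, a WD-repeat core subunit, had 451 and 430.3 CPM in double-knockout cells, 295 and 323 CPM in VHL-restored cells, and 275 and 270.1 CPM in parental cells. EIF3M had 235 and 241 CPM in double-knockout cells, 157 and 181 CPM in VHL-restored cells, and 134 and 139.8 CPM in parental cells. The double-knockout excess over parental cells was largest for EIF3M, 1.74-fold higher (log2 fold change 0.80 ± 0.06, adjusted p = 3.18e-12), with EIF3I 1.62-fold higher (log2 fold change 0.69 ± 0.06, adjusted p = 7.63e-12) and EIF3D 1.54-fold higher (log2 fold change 0.63 ± 0.06, adjusted p = 5.97e-11). EIF3J, a loosely attached subunit, had 67.3 and 78.3 CPM in double-knockout cells, 46.4 and 44.8 CPM in VHL-restored cells, and 49.8 and 52.0 CPM in parental cells and was 1.43-fold higher (log2 fold change 0.51 ± 0.08, adjusted p = 5.94e-07) in double-knockout cells. In VHL-restored cells EIF3M was 1.24-fold higher (log2 fold change 0.30 ± 0.07, adjusted p = 0.000168), while EIF3D (log2 fold change 0.08 ± 0.06, adjusted p = 0.285) and EIF3J (log2 fold change -0.16 ± 0.08, adjusted p = 0.0865) did not pass. The EIF3M log2 fold change in VHL-restored cells was 0.20 without VHL-restored replicate 2. EIF3I passed in VHL-restored cells (log2 0.18, adjusted p = 0.00989), but not when a library was left out: parental replicate 1 (adjusted p = 0.0822), parental replicate 2 (0.127) or, of the VHL-restored cells, replicate 2 (0.121). EIF3H was 1.17-fold higher (log2 fold change 0.23 ± 0.06, adjusted p = 0.00119) in double-knockout cells and had a log2 fold change of 0.10 ± 0.06 (adjusted p = 0.172) in VHL-restored cells, called higher without VHL-restored replicate 1 (adjusted p = 0.0289). EIF3C and EIF3CL, near-identical copies each listed at 4.01 to 5.16 CPM, far under the other subunits, did not pass in any comparison, and their level is uncertain because reads shared by such copies may be split or left out in counting.

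In the eIF4 group 8 of 12 genes were higher, 3 lower and 1 did not pass in double-knockout against parental cells; in VHL-restored cells 7 were higher, 2 lower and 3 did not pass. The shares are 66.7% higher and 25% lower in double-knockout cells, beside 36.1% and 35.6% of all genes of at least 1 CPM, and 58.3% and 16.7% in VHL-restored cells, beside 35.1% and 36.7%. The eIF4A helicases unwind the leader of the messenger RNA. EIF4A1 had 1220.4 and 1163 CPM in double-knockout cells, 994 and 1089.6 CPM in VHL-restored cells, and 789 and 755 CPM in parental cells. Its close paralog EIF4A2 had 261 and 269 CPM in double-knockout cells, 318 and 331 CPM in VHL-restored cells, and 187 and 188 CPM in parental cells. Both genes were above parental in both engineered lines without overlap, but EIF4A1 was highest in double-knockout cells and EIF4A2 in VHL-restored cells. Relative to parental cells EIF4A1 was 1.54-fold higher (log2 fold change 0.63 ± 0.05, adjusted p = 2.11e-11) in double-knockout cells. In VHL-restored cells EIF4A1 was 1.35-fold higher (log2 fold change 0.43 ± 0.05, adjusted p = 5.1e-08). EIF4A2 was 1.41-fold higher (log2 fold change 0.50 ± 0.06, adjusted p = 6.74e-09) in double-knockout cells. In VHL-restored cells EIF4A2 was 1.73-fold higher (log2 fold change 0.79 ± 0.06, adjusted p = 2.74e-13). Directly compared with VHL-restored cells, double-knockout cells had EIF4A1 1.14-fold higher (log2 fold change 0.19 ± 0.05, adjusted p = 0.00303) and EIF4A2 1.22-fold lower (log2 fold change -0.29 ± 0.06, adjusted p = 4.26e-05). The EIF4A1 difference was lost without double-knockout replicate 1 (adjusted p = 0.0916). EIF4A2 made up 17.6% and 18.8% in double-knockout cells, 24.2% and 23.3% in VHL-restored cells, and 19.2% and 20.0% in parental cells of the reads of the pair, with exact 95% bounds within 0.542 points. Exons of EIF4A1 overlap those of the readthrough gene SENP3-EIF4A1 and of small nucleolar RNA genes, and 13 pseudogenes are numbered after EIF4A1. Exons of EIF4A2 overlap small nucleolar RNA genes, MIR1248 and, on the opposite strand, RFC4, and 5 pseudogenes are numbered after it. Both counts, and the share of the pair, are uncertain to that extent. In all, 20 of the 46 initiation factors share exon sequence with another gene of the table, among them EIF2S1, EIF2B1, EIF5A and EIF5B on the opposite strand, and 19 have numbered pseudogenes.

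The helicase cofactors EIF4B and EIF4H had their lowest levels in different engineered lines. EIF4B had 347 and 366 CPM in double-knockout cells, 537 and 537 CPM in VHL-restored cells, and 439.8 and 423 CPM in parental cells. EIF4H had 285 and 276 CPM in double-knockout cells, 186 and 195 CPM in VHL-restored cells, and 274 and 265 CPM in parental cells. EIF4B was lowest in double-knockout cells, 1.21-fold lower (log2 fold change -0.27 ± 0.06, adjusted p = 7.56e-05) than in parental cells, and was 1.25-fold higher (log2 fold change 0.32 ± 0.05, adjusted p = 9.72e-06) in VHL-restored cells. EIF4H was lowest in VHL-restored cells, 1.42-fold lower (log2 fold change -0.50 ± 0.06, adjusted p = 7.16e-09) than in parental cells, with a log2 fold change of 0.06 ± 0.06 (adjusted p = 0.446) in double-knockout cells. Between the engineered lines EIF4B was 1.51-fold lower (log2 fold change -0.59 ± 0.05, adjusted p = 7.65e-11) and EIF4H 1.47-fold higher (log2 fold change 0.56 ± 0.06, adjusted p = 6.94e-10) in double-knockout cells. EIF4A3, a helicase of the exon junction complex rather than of initiation, had 104 and 97.5 CPM in double-knockout cells, 118 and 127 CPM in VHL-restored cells, and 119 and 113 CPM in parental cells. It was 1.15-fold lower (log2 fold change -0.20 ± 0.06, adjusted p = 0.00861) in double-knockout than in parental cells, a call lost without parental replicate 1 (adjusted p = 0.167), parental replicate 2 (0.0502) or double-knockout replicate 2 (0.112).

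EIF4E encodes the main cap-binding protein, and had 13.3 and 14.3 CPM in double-knockout cells, 10.2 and 9.51 CPM in VHL-restored cells, and 10.8 and 9.48 CPM in parental cells. Double-knockout cells were highest, 1.35-fold higher (log2 fold change 0.44 ± 0.11, adjusted p = 0.000673) than parental cells, and the VHL-restored libraries lay among the parental ones with a log2 fold change of -0.05 ± 0.11 (adjusted p = 0.745). EIF4E2 encodes 4EHP, a cap-binding homologue known to act with HIF-2alpha and RBM4 in translation under hypoxia and as a repressor of translation in other settings. EIF4E2 had 59.7 and 53.0 CPM in double-knockout cells, 54.8 and 60.4 CPM in VHL-restored cells, and 47.1 and 46.8 CPM in parental cells. It was above parental in both lines, 1.20-fold higher (log2 fold change 0.26 ± 0.08, adjusted p = 0.00368) in double-knockout and 1.23-fold higher (log2 fold change 0.29 ± 0.08, adjusted p = 0.00137) in VHL-restored cells, and the lines overlapped each other. These EIF4E2 calls were lost without parental replicate 1 (adjusted p = 0.0815 for double-knockout and 0.0531 for VHL-restored cells), without parental replicate 2 (0.0844 and 0.0548) and, in double-knockout cells, without double-knockout replicate 1 (0.117). Its partner RBM4, an RNA-binding protein, was 1.39-fold higher (log2 fold change 0.47 ± 0.07, adjusted p = 4.4e-07) in double-knockout cells. In VHL-restored cells RBM4 was 1.62-fold higher (log2 fold change 0.70 ± 0.07, adjusted p = 2.05e-10).

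EIF4E3 encodes a further cap-binding homologue with an atypical cap pocket. EIF4E3 had 4.21 and 5.20 CPM in double-knockout cells, 6.87 and 7.36 CPM in VHL-restored cells, and 10.3 and 9.97 CPM in parental cells. It was the initiation factor most lowered in double-knockout cells, and the 3 groups were separate with parental cells highest. EIF4E3 was 2.17-fold lower (log2 fold change -1.12 ± 0.13, adjusted p = 4.36e-09) in double-knockout and 1.43-fold lower (log2 fold change -0.52 ± 0.12, adjusted p = 0.000354) in VHL-restored cells than in parental cells, and 1.52-fold lower (log2 fold change -0.60 ± 0.13, adjusted p = 0.00021) in double-knockout than in VHL-restored cells. EIF4E3 made up 24.0% and 26.7% in double-knockout cells, 40.2% and 43.6% in VHL-restored cells, and 48.9% and 51.2% in parental cells of the reads of EIF4E and EIF4E3, with exact 95% bounds within 4.77 points. These shares were not corrected for length. In the annotation 5 pseudogenes are numbered after EIF4E and 0 after EIF4E3, so the EIF4E count and the share are uncertain to that extent. An exon of EIF4E3 overlaps GPR27 on the opposite strand, and reads of the 2 genes cannot be told apart where counting is not stated to use strand.

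Of the scaffold genes, EIF4G1, which links the cap, the helicase and eIF3, had 1364 and 1273 CPM in double-knockout cells, 1166 and 1135 CPM in VHL-restored cells, and 1105 and 1062 CPM in parental cells. It was 1.22-fold higher (log2 fold change 0.28 ± 0.05, adjusted p = 2.66e-05) in double-knockout cells, and its log2 fold change of 0.09 ± 0.05 (adjusted p = 0.177) in VHL-restored cells did not pass. EIF4G2 encodes DAP5, a scaffold without the eIF4E-binding region, and was 1.36-fold higher (log2 fold change 0.44 ± 0.05, adjusted p = 7.56e-09) in double-knockout cells. In VHL-restored cells EIF4G2 was 1.17-fold higher (log2 fold change 0.23 ± 0.05, adjusted p = 0.000299). EIF4G3 was 1.27-fold higher (log2 fold change 0.34 ± 0.06, adjusted p = 2.47e-05) in double-knockout and 1.17-fold higher (log2 fold change 0.23 ± 0.06, adjusted p = 0.00262) in VHL-restored cells, the second call being lost without parental replicate 1 (adjusted p = 0.0649). EIF4ENIF1 encodes 4E-T, which carries eIF4E to the nucleus and to P-bodies, and had 85.9 and 88.8 CPM in double-knockout cells, 98.8 and 98.7 CPM in VHL-restored cells, and 72.6 and 68.0 CPM in parental cells. VHL-restored cells were highest and parental cells lowest: EIF4ENIF1 was 1.24-fold higher (log2 fold change 0.31 ± 0.07, adjusted p = 0.000156) in double-knockout cells. In VHL-restored cells EIF4ENIF1 was 1.40-fold higher (log2 fold change 0.49 ± 0.07, adjusted p = 1.4e-07).

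EIF5, EIF5B and EIF6 act in GTP hydrolysis and subunit joining. EIF5 encodes the activator of GTP hydrolysis on eIF2, and had 105 and 117 CPM in double-knockout cells, 139.6 and 143 CPM in VHL-restored cells, and 151 and 159 CPM in parental cells. EIF5 was lowest in double-knockout cells, 1.40-fold lower (log2 fold change -0.48 ± 0.06, adjusted p = 1.07e-07) than in parental cells and 1.27-fold lower (log2 fold change -0.35 ± 0.06, adjusted p = 2.12e-05) than in VHL-restored cells; its log2 fold change of -0.13 ± 0.06 (adjusted p = 0.0783) in VHL-restored cells did not pass. EIF6 encodes the factor that keeps the large ribosomal subunit from joining too early, and had 277 and 261 CPM in double-knockout cells, 185 and 200.4 CPM in VHL-restored cells, and 148 and 145 CPM in parental cells. The order was double-knockout, VHL-restored and parental cells, without overlap, and EIF6 was 1.84-fold higher (log2 fold change 0.88 ± 0.06, adjusted p = 8.18e-14) in double-knockout cells than in parental cells. In VHL-restored cells EIF6 was 1.31-fold higher (log2 fold change 0.39 ± 0.06, adjusted p = 1.76e-06). EIF5B, the GTPase of subunit joining, was 1.24-fold higher (log2 fold change 0.32 ± 0.06, adjusted p = 4.43e-05) in double-knockout cells and had a log2 fold change of 0.02 ± 0.06 (adjusted p = 0.772) in VHL-restored cells.

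**Figure D3:**
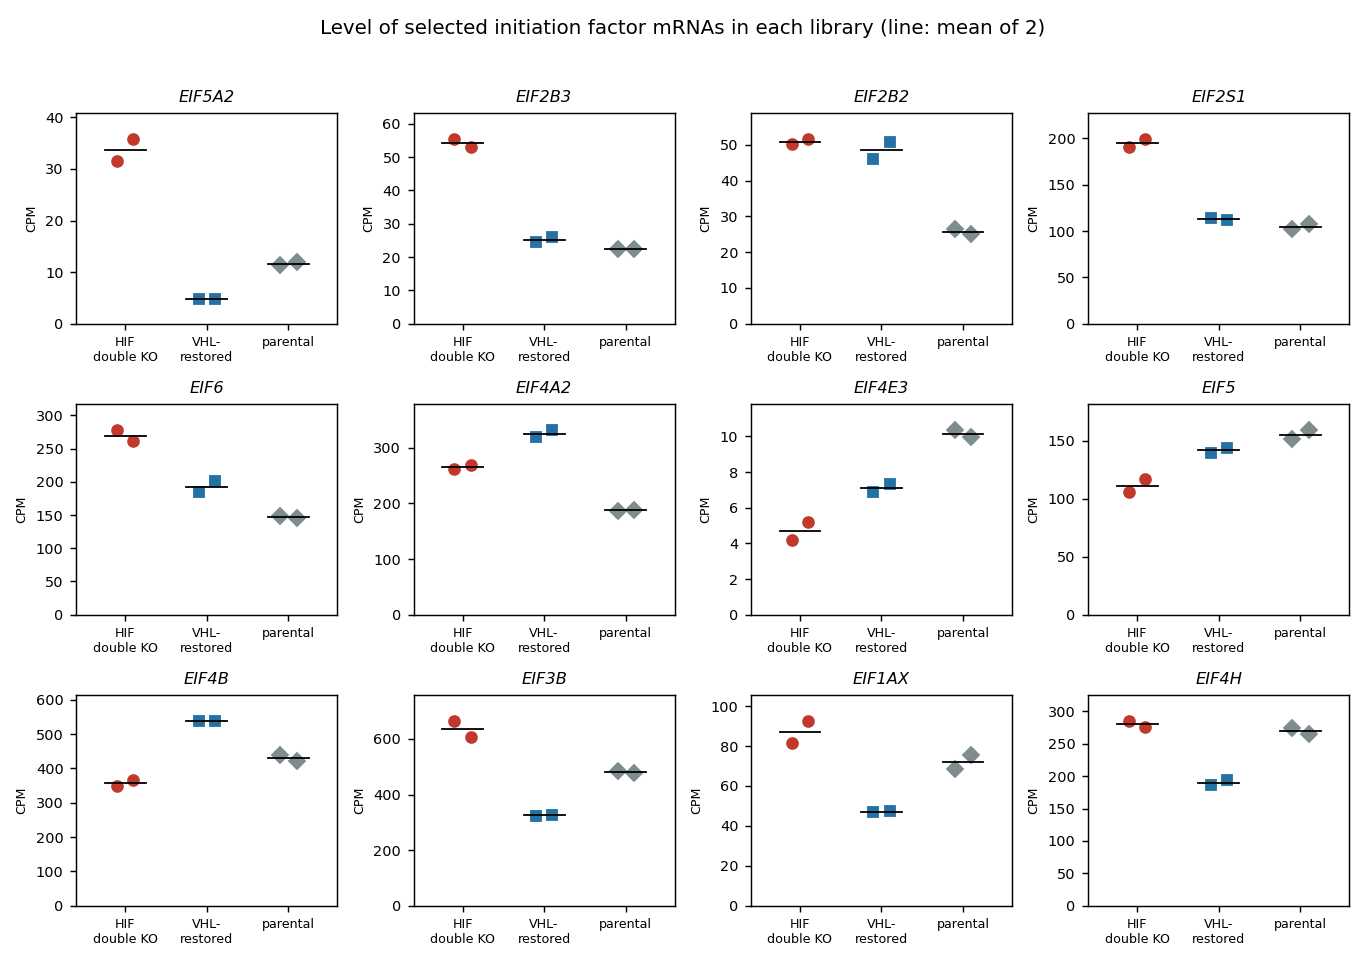
CPM in each library (points) for selected initiation factors in HIF double-knockout, VHL-restored and parental cells, with lines at the group means and a y axis from 0 in each panel. EIF5A2 has 31.5 and 35.7 CPM in the double-knockout libraries, above all others, and EIF4E3 is highest in the parental libraries at 10.3 and 9.97 CPM.

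The regulators of initiation did not share one direction. Of the 65 related genes listed, 34 were higher and 17 lower in double-knockout against parental cells, with a median log2 fold change of 0.15. These are 52.3% higher and 26.2% lower, beside 36.1% and 35.6% of all genes of at least 1 CPM. In VHL-restored cells 24 were higher and 29 lower, with a median of -0.11. The shares, 36.9% and 44.6%, lie near the 35.1% and 36.7% of all genes of at least 1 CPM, and the median over all genes tested was 0.00 in both comparisons. Of the 3 4E-binding proteins, which hold eIF4E away from eIF4G, EIF4EBP1 had 88.7 and 80.2 CPM in double-knockout cells, 64.8 and 74.5 CPM in VHL-restored cells, and 86.8 and 83.4 CPM in parental cells. EIF4EBP2 had 121 and 129 CPM in double-knockout cells, 88.3 and 86.0 CPM in VHL-restored cells, and 142 and 138 CPM in parental cells. Both were lowest in VHL-restored cells, where EIF4EBP1 was 1.22-fold lower (log2 fold change -0.29 ± 0.07, adjusted p = 0.00107) and EIF4EBP2 1.60-fold lower (log2 fold change -0.68 ± 0.06, adjusted p = 6.34e-11) than in parental cells. The EIF4EBP1 call was lost without parental replicate 1 (adjusted p = 0.1), and its log2 fold change was -0.19 without VHL-restored replicate 1. In double-knockout cells EIF4EBP2 was 1.12-fold lower (log2 fold change -0.16 ± 0.06, adjusted p = 0.0257), a call lost without parental replicate 1 (adjusted p = 0.178), parental replicate 2 (0.0912) or double-knockout replicate 1 (0.164) and with centring on all genes (0.636), and EIF4EBP1 had a log2 fold change of -0.01 ± 0.07 (adjusted p = 0.942). EIF4EBP3, at 7.04 and 6.95 CPM in double-knockout cells, 8.41 and 7.58 CPM in VHL-restored cells, and 6.50 and 6.97 CPM in parental cells, did not pass in any comparison, but was called higher in VHL-restored cells with either median centring (adjusted p = 0.036 and 0.0169).

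The 4 eIF2alpha kinases each had a pattern of their own. EIF2AK3 encodes PERK, the kinase of endoplasmic reticulum stress, and had 29.1 and 31.0 CPM in double-knockout cells, 35.2 and 34.0 CPM in VHL-restored cells, and 48.9 and 47.8 CPM in parental cells. EIF2AK4 encodes GCN2, the sensor of amino acid lack, and had 149 and 149 CPM in double-knockout cells, 109 and 109 CPM in VHL-restored cells, and 95.0 and 99.0 CPM in parental cells. EIF2AK3 was highest in parental cells and EIF2AK4 in double-knockout cells: EIF2AK3 was 1.61-fold lower (log2 fold change -0.69 ± 0.08, adjusted p = 2.67e-09) and EIF2AK4 1.54-fold higher (log2 fold change 0.62 ± 0.06, adjusted p = 3e-10) in double-knockout cells. EIF2AK1 encodes the haem-regulated kinase and had 347 and 344 CPM in double-knockout cells, 207 and 212 CPM in VHL-restored cells, and 338 and 332 CPM in parental cells. EIF2AK2 encodes PKR, the kinase activated by double-stranded RNA, and had 71.4 and 75.3 CPM in double-knockout cells, 94.4 and 85.2 CPM in VHL-restored cells, and 65.1 and 78.4 CPM in parental cells. VHL-restored cells were lowest for EIF2AK1, 1.60-fold lower (log2 fold change -0.68 ± 0.06, adjusted p = 6.25e-12) than parental cells, and highest for EIF2AK2, 1.25-fold higher (log2 fold change 0.33 ± 0.08, adjusted p = 0.000484); the EIF2AK2 call was lost without parental replicate 1 (adjusted p = 0.117). With centring on all genes EIF2AK1 was called higher in double-knockout cells (adjusted p = 0.0135). Neither gene otherwise passed there, with log2 fold changes of 0.04 ± 0.06 (adjusted p = 0.542) for EIF2AK1 and 0.03 ± 0.08 (adjusted p = 0.745) for EIF2AK2.

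Of the 8 genes of the eIF2alpha phosphatase and ATF4 branch, 5 were higher and 2 lower in double-knockout cells, and 5 higher and 3 lower in VHL-restored cells. The shares in double-knockout cells are 62.5% higher and 25% lower, beside 36.1% and 35.6% of all genes of at least 1 CPM. In VHL-restored cells they are 62.5% and 37.5%, beside 35.1% and 36.7%. In double-knockout cells 1 was lower without parental replicate 2 or double-knockout replicate 1 or with centring on all genes, and when either parental library or, of the VHL-restored libraries, replicate 2 was left out, 3 were higher in VHL-restored cells. PPP1R15A encodes GADD34, which brings the phosphatase to eIF2alpha, and had 194 and 176 CPM in double-knockout cells, 42.5 and 46.6 CPM in VHL-restored cells, and 78.4 and 78.9 CPM in parental cells. ATF4 encodes the transcription factor whose translation rises when eIF2alpha is phosphorylated, and had 357 and 339 CPM in double-knockout cells, 276 and 297 CPM in VHL-restored cells, and 216 and 203 CPM in parental cells. ATF5, translated under similar control, had 239.8 and 217 CPM in double-knockout cells, 77.3 and 78.1 CPM in VHL-restored cells, and 71.2 and 66.3 CPM in parental cells. All 3 were highest in double-knockout cells, and PPP1R15A was lowest in VHL-restored cells. Against parental cells PPP1R15A was 2.35-fold higher (log2 fold change 1.23 ± 0.07, adjusted p = 1.74e-16) in double-knockout cells. In VHL-restored cells PPP1R15A was 1.77-fold lower (log2 fold change -0.82 ± 0.07, adjusted p = 1.65e-11). ATF4 was 1.66-fold higher (log2 fold change 0.73 ± 0.06, adjusted p = 3.36e-12) in double-knockout and 1.37-fold higher (log2 fold change 0.45 ± 0.06, adjusted p = 9.54e-08) in VHL-restored cells, and ATF5 was 3.32-fold higher (log2 fold change 1.73 ± 0.07, adjusted p = 2.64e-20) in double-knockout cells.

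The mTORC1 and MNK list had 6 of 15 genes higher and 8 lower in double-knockout cells, and 5 higher and 9 lower in VHL-restored cells; without parental replicate 1 only 3 were lower in VHL-restored cells. Double-knockout cells had 40% higher and VHL-restored cells 33.3%, shares that lie near the 36.1% and 35.1% of all genes of at least 1 CPM. The shares lower are 53.3% and 60%, beside 35.6% and 36.7%. DDIT4 encodes REDD1, an inhibitor of mTORC1 that is a known HIF target. DDIT4 had 128 and 135 CPM in double-knockout cells, 234 and 249.9 CPM in VHL-restored cells, and 945 and 961 CPM in parental cells. It was far highest in parental cells, and was 7.22-fold lower (log2 fold change -2.85 ± 0.06, adjusted p = 4.84e-27) in double-knockout cells. In VHL-restored cells DDIT4 was 3.94-fold lower (log2 fold change -1.98 ± 0.06, adjusted p = 2.17e-23). AKT1S1, which encodes the mTORC1 inhibitor PRAS40, was 1.83-fold higher (log2 fold change 0.87 ± 0.06, adjusted p = 8.26e-14) in double-knockout cells. RHEB, the GTPase that activates mTORC1, was 2.30-fold lower (log2 fold change -1.20 ± 0.07, adjusted p = 2.32e-15) in VHL-restored cells and 2.04-fold higher (log2 fold change 1.03 ± 0.07, adjusted p = 1.08e-13) in double-knockout than in VHL-restored cells.

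Among the 12 other scanning, reinitiation and hypusine factors, 11 were higher and 0 lower in double-knockout cells against parental cells. An unadjusted edgeR p under 0.05, DESeq2 and limma-voom also gave 0 lower. In VHL-restored cells 6 were higher and 4 lower. The shares are 91.7% higher and 0% lower in double-knockout cells, beside 36.1% and 35.6% of all genes of at least 1 CPM. For VHL-restored cells they are 50% and 33.3%, beside 35.1% and 36.7%. MCTS1, which acts with DENR in reinitiation, had 79.7 and 86.7 CPM in double-knockout cells, 38.2 and 38.0 CPM in VHL-restored cells, and 49.2 and 57.6 CPM in parental cells. BZW2, an eIF5 mimic protein, had 145 and 155 CPM in double-knockout cells, 58.2 and 64.7 CPM in VHL-restored cells, and 108 and 111 CPM in parental cells. Both were highest in double-knockout and lowest in VHL-restored cells: MCTS1 was 1.56-fold higher (log2 fold change 0.64 ± 0.08, adjusted p = 9.69e-09) in double-knockout and 1.40-fold lower (log2 fold change -0.48 ± 0.08, adjusted p = 4.2e-06) in VHL-restored cells, and BZW2 was 1.37-fold higher (log2 fold change 0.46 ± 0.06, adjusted p = 3.66e-07) and 1.78-fold lower (log2 fold change -0.83 ± 0.07, adjusted p = 4.05e-12), all against parental cells. Termination and recycling factors had 4 of 6 higher in double-knockout cells and 3 of 6 lower in VHL-restored cells. The shares are 66.7% higher and 0% lower, and 0% and 50%, beside the same shares of all genes. Of the 6, GSPT2 had only 1 read, in parental replicate 2. With either median centring, HBS1L lost its call in VHL-restored cells (adjusted p = 0.0971 and 0.255) and ETF1 was called higher there (0.0129 and 0.00254). The release factor ETF1 was 1.79-fold higher (log2 fold change 0.84 ± 0.06, adjusted p = 9.21e-14) in double-knockout cells. Elongation factors had 4 of 8 higher and 2 lower in double-knockout cells, and 5 higher and 2 lower in VHL-restored cells. These are 50% higher and 25% lower in double-knockout cells, beside 36.1% and 35.6% of all genes of at least 1 CPM, and 62.5% and 25% in VHL-restored cells, beside 35.1% and 36.7%. EEF1A2, a tissue-restricted isoform of the factor that brings aminoacyl-tRNA to the ribosome, changed most of all related genes. EEF1A2 had 0.274 and 0.272 CPM in double-knockout cells, 0.143 and 0.107 CPM in VHL-restored cells, and 3.10 and 4.59 CPM in parental cells. Its log2 fold change against parental cells was -3.77 ± 0.41 (adjusted p = 3.38e-12) in double-knockout cells, from 8 and 7 reads, and -4.86 ± 0.58 (adjusted p = 3.7e-13) in VHL-restored cells, from 4 and 3 reads. Among the 7 poly(A)-binding proteins and partners 2 were higher and 3 lower in double-knockout cells. These are 28.6% and 42.9%, beside 36.1% and 35.6% of all genes of at least 1 CPM. The translation inhibitor gene PAIP2B was 6.81-fold lower (log2 fold change -2.77 ± 0.22, adjusted p = 3.33e-14) in double-knockout cells, from 25 and 25 reads against 179 and 146 in parental cells. Of the 2 mitochondrial initiation factors, MTIF3 was 1.42-fold higher (log2 fold change 0.50 ± 0.10, adjusted p = 5.12e-05) in double-knockout cells.

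**Figure D4:**
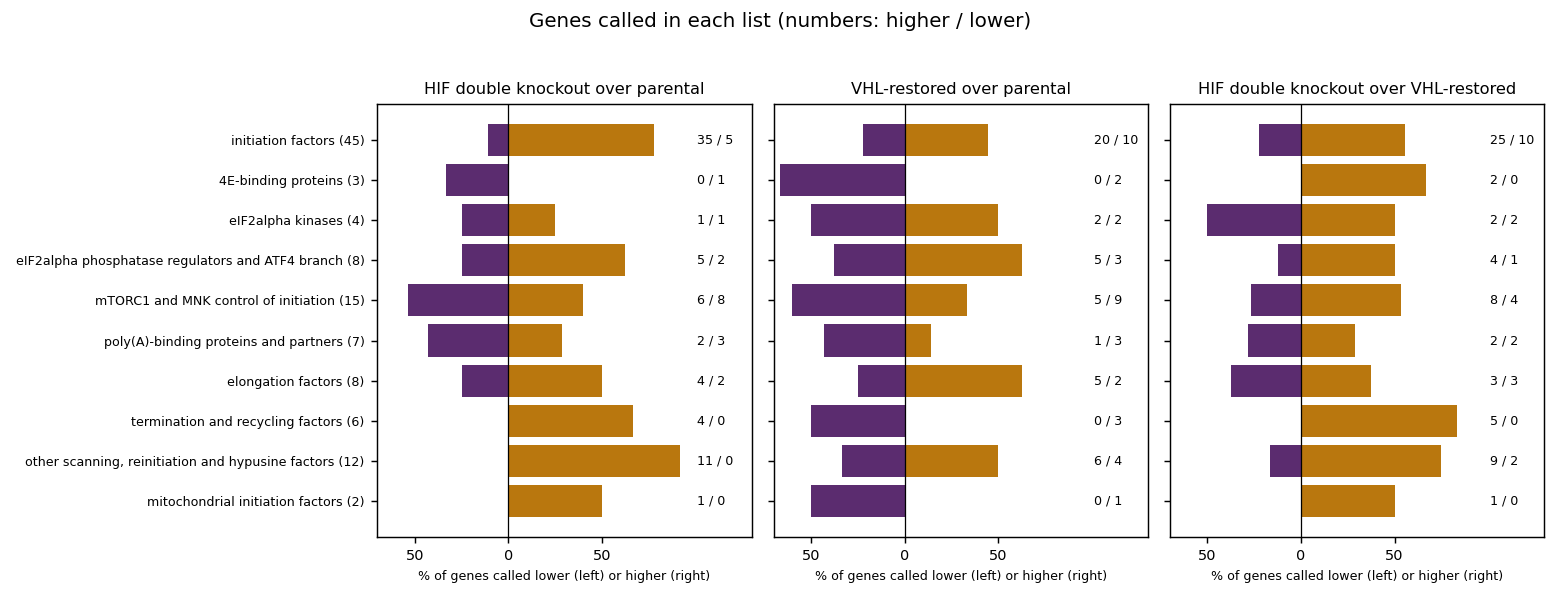
Percent of the genes of each list (y axis, list size in brackets) called lower (bars to the left) or higher (bars to the right) in the 3 comparisons, with the counts higher and lower at the right of each panel. The initiation factors, with EIF3C and EIF3CL counted once, had 35 higher and 5 lower in HIF double-knockout over parental cells, and 20 higher and 10 lower in VHL-restored over parental cells.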

How the data were processed

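Gene counts were deposited by the authors as a single table of whole numbers for 19009 gene symbols in 6 columns. Although the table is named normalized, its column totals differ and no small whole number is skipped, and it was treated as raw counts. Per the submitters' processing notes, the tools were HISAT2 2.2.1, featureCounts 2.0.8, Trimmomatic 0.39, FastQC 0.74 and limma 3.58.1. Builds hg38 and hg19 are both named, and no source used here gives the build counted on, the strandedness or the handling of shared reads. Per the labels' protocols, RNA was column-purified and DNase-treated before mRNA library preparation.

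In edgeR 4.0.16 (R 4.3.3), the 18273 genes that had a count of 1 or more in any library were fitted with TMM scaling (factors 0.977 to 1.02), 3 group means over all 6 libraries, the quasi-likelihood test, prior count 0.125 and Benjamini-Hochberg adjustment over all genes tested, with calls at 0.05. The common biological coefficient of variation was 4.41%, and the replicates of each group differed beyond counting error (chi-square over its degrees of freedom, 2.58 to 6.61). CPM are counts per 1000000 of the TMM-scaled total, and errors of fold changes are Wald SEs from that fit. Alternatives used limma-voom (limma 3.58.1), DESeq2 1.42.0, other scaling and filters, a replicate block, and leaving out each library. The code was tested on simulated data.

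Lengths and exon overlaps come from GENCODE (GRCh38), and promoters from RefSeq (GRCh38.p14), matched by symbol for 39 of the 46. Values per library are given for the 10 most raised and 10 most lowered initiation factors of each comparison among those past 0.05 without overlap, and for EIF4E, EIF4E2, EIF4A1, EIF4A2, EIF4G1, EIF2S1, EIF5A and EIF5A2 in any case. Of regulators, the 4E-binding proteins, the eIF2alpha kinases, DDIT4, ATF4, RBM4 and at most 2 genes with the largest change per related list are named. DHPS, GSPT2 and HBS1L were added after their values were seen. One further item of the marker list is not reported here. The members and lists were chosen with earlier results of these data known.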

Additional observations from a re-analysis of the deposited data

How the results depend on the processing

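The 3 comparisons were refitted under 14 settings: median-of-ratios scaling, centring on the median of genes of at least 1 CPM, centring on the median of all genes (chosen after the data were seen), a filter on low counts, DESeq2, limma-voom, the 4 libraries of a comparison alone, a replicate block, and without each of the 6 libraries. Under no setting did an initiation factor pass in the direction opposite to its call. Initiation factors lower in double-knockout against parental cells numbered 3 rather than 5 under centring on all genes, and 3 to 5 without a library (3 without parental replicate 1); those higher numbered 32 to 35. Against parental cells, VHL-restored cells had 16 to 21 higher and 9 to 11 lower, and double-knockout cells had 23 to 28 higher and 8 to 10 lower than VHL-restored cells. Over all genes the ranges were 3901 to 4987 higher and 4073 to 5147 lower, 3855 to 4715 and 4036 to 4956, and 4576 to 4872 and 4443 to 4807, in the same order of comparisons. Of 1008 values of named initiation factors under these settings, 968 kept side and direction, 28 lost and 4 gained the call, and 8, all uncalled, changed sign: EIF4E in VHL-restored against parental cells (0.036 under centring on all genes, and -0.13 to 0.066 without a library), EIF5A in the same comparison (-0.015 to 0.13 without a library) and EIF4E2 between double-knockout and VHL-restored cells (0.0095 under centring on all genes, and -0.12 to 0.052 without a library). The cause of these sign changes was not tested. Most named initiation factors had been picked from those past 0.05 without overlap. The number of kept calls therefore says little about initiation factors near the threshold. Same-numbered libraries correlated in their deviations from the group mean at 0.13 for double-knockout and parental cells. The correlation was 0.0005 for VHL-restored and parental cells, and 0.006 for double-knockout and VHL-restored cells. With 2 libraries a group, these values cannot tell whether a replicate number marks a shared culture or day. With the replicate block, 40 initiation factors were called in double-knockout against parental cells, 32 in VHL-restored against parental cells (EIF3J and EIF5 added) and 38 between double-knockout and VHL-restored cells (EIF1B, EIF3H and EIF3L added). With 2 libraries a group, small changes near the threshold rest on single libraries.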
